A study of Mus musculus with 3 samples.

Results

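The epidermal differentiation complex is a cluster of genes whose proteins build and regulate the outer, cornified layer of the skin. Its members were taken by symbol as the genes named S100a, Sprr or Lce followed by a number, together with Lor, Ivl, Flg, Flg2, Hrnr, Rptn, Tchh, Tchhl1 and Crnn. The rule found 61 of the 43280 genes listed. All 61 lie on chromosome 3, within chr3:90511034-93564643 of mm10, a span of 3.05 Mb. The cluster was selected on CPM values of these libraries, in which Lor and Hrnr had already been seen to differ, so its values are given as a description.

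RNA came from mouse skeletal mesenchyme at E15.5, described in the series as calvarial and labelled as primary cells, with 1 library for each of 3 genotypes at the beta-catenin gene. The dTF-cKO library was beta-catenin fx/dm with Dermo1-Cre, a recombinase expressed from Twist2 (Dermo1) regulatory sequence, active in mesenchyme. The cKO library was beta-catenin fx/fx with Dermo1-Cre. The control library was beta-catenin fx/fx with no Cre listed. At least 1 floxed allele was thus present in every library, and fx/dm was sequenced only with Cre. What dm stands for is not spelled out, but a mouse beta-catenin allele known by these letters retains adhesion and lacks transcriptional output. The labels give neither strain nor sex, and do not say how many embryos entered a library. The title and design ask how beta-catenin alleles shape gene expression and cell fate in this tissue.

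As the epidermis stratifies, basal keratinocytes move outward, become spinous and then granular cells, and finally crosslink proteins under their membrane into the cornified envelope. Loricrin, involucrin, the small proline-rich proteins (Sprr) and the late cornified envelope proteins (Lce) are envelope precursors. Profilaggrin and its relatives are proteins that carry an S100 domain fused to long repeats. The S100a proteins are small calcium-binding proteins, several of which are also made by mesenchymal, muscle or myeloid cells.

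Totals of 2678457 to 3634819 counts were available. Levels are given as CPM, counts scaled by library size to a fixed total. A gene with 0 counts could have a level of up to 3 counts, which is 1.07, 1.06 and 0.839 CPM in the dTF-cKO, cKO and control. The libraries stood apart in what filled them. Type I collagen genes, defining products of bone mesenchyme, took 0.766% of dTF-cKO counts, 4.04% of cKO counts and 17.6% of control counts. The 51 keratin genes took 1.79%, 2.15% and 0.0156%. Fibroblast and mesenchyme genes (14 of 14 measured, none at 0) summed to 8233, 16363.5 and 20097 CPM. Ctnnb1, the targeted gene, stood at 442, 745 and 1026 CPM. Each genotype had 1 library, so differences between genotypes have no replicate check and no test, and every interval covers counting error only. In these bulk samples fewer cells of a type and less RNA per cell cannot be told apart.

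The Cre-carrying libraries held nearly equal summed counts of members, with different makeups. The 61 genes summed to 15015 counts in the dTF-cKO, 15028 in the cKO and 1431 in the control. As a share of all counts this was 0.517% (exact 95% interval 0.509% to 0.525%) in the dTF-cKO, 0.561% (0.552% to 0.570%) in the cKO and 0.0394% (0.0374% to 0.0415%) in the control. After scaling, the dTF-cKO sum was 1.01 times the cKO sum (0.987 to 1.03). This ratio depended on the scaling, and was 3.45 with libraries scaled to stromal genes. Without Lor and the other most abundant genes the shares were 0.582% in the dTF-cKO and 0.370% in the cKO. The dTF-cKO sum was 13.4 times the control sum (12.7 to 14.2), and the cKO sum was 13.3 times the control sum (12.6 to 14.03). These 2 ratios share the control library.

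In the dTF-cKO, S100a genes made up 74.0% of the member counts (73.3% to 74.7%) and Sprr genes 24.7% (24.1% to 25.4%). In the cKO, Lor and Ivl made up 49.2% (48.4% to 49.96%) and the S100-fused genes, nearly all Hrnr, 28.7% (27.9% to 29.4%). S100a genes were 19.3% of the cKO sum (18.7% to 19.96%) and Sprr genes 1.89% (1.68% to 2.12%). In the control, S100a genes were 97.8% of a much smaller sum (96.9% to 98.5%). A set of Lor, Hrnr, Ivl, Flg2 and the 21 Lce genes was grouped after their values were seen. It held 114 counts in the dTF-cKO, 11810 in the cKO and 15 in the control. Lor and Hrnr alone held 7210 and 4270 of the cKO counts. The set leaves out members that were higher in the dTF-cKO than in the cKO: the Sprr genes (3716 against 284 counts), Rptn (15 against 0) and Crnn (29 against 6).

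**Figure D1:**
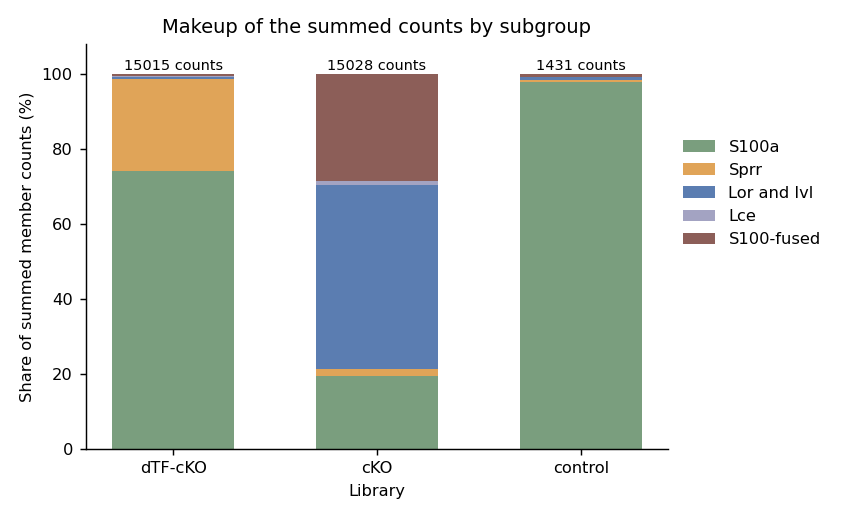
Share (%) of the summed counts of the 61 members held by each subgroup, stacked, in the dTF-cKO, cKO and control libraries, with the summed count above each bar. The dTF-cKO and cKO bars rest on nearly equal sums, 15015 and 15028 counts, but S100a and Sprr genes fill the dTF-cKO bar while Lor, Ivl and the S100-fused genes fill most of the cKO bar.

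Genes that averaged 5 CPM or more across the libraries were counted as measured. This kept 20 of the 61 members: 9 S100a, 6 Sprr, 1 Lce, Lor and Ivl, and 2 S100-fused genes. Another 26 had counts but lay below that floor, and 15 had no count in any library. Of the 20 measured members, 18 reached 5 CPM in the dTF-cKO, 17 in the cKO and 7 in the control. The other 13 passed through the Cre-carrying libraries, where they are high, and so had to differ from the control. S100a4 in turn passed only through its control level, so its direction against the control was also set by the floor. The counts of these members below are descriptions of these libraries.

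A difference of at least 1 on the log2 scale, a 2-fold difference, was used as the size rule. In the dTF-cKO against the control, 19 of the 20 measured members were higher, where 19.5% of all 12127 measured genes were, and 1 was lower, where 20.9% were. Lce3f was among the 19 with only 2 counts against 0, which leaves 18 above the limit of 3 counts. The median log2 difference was 2.98, or 2.84 over the 19 members with a fold and with genes at 0 set to their bound, against 0.06 for all measured genes. In the cKO against the control, 13 were higher, where 9.66% of all measured genes were, and 1 was lower, where 6.78% were. Sprr2k was among the 13 with 2 counts against 0, which leaves 12. That median was 1.88, or 2.42 over the 17 members with a fold and bounds, against 0.06 for all measured genes. In the dTF-cKO against the cKO, 11 were higher, where 14.5% of all measured genes were, and 5 were lower, where 20.5% were. The median was 1.63 against 0.01 for all measured genes. In this comparison Sprr2d, Sprr2h and Sprr2k reached the floor only through the dTF-cKO. Lce3f, Ivl and Hrnr reached it only through the cKO. The direction of these genes was thus set by the floor.

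**Figure D2:**
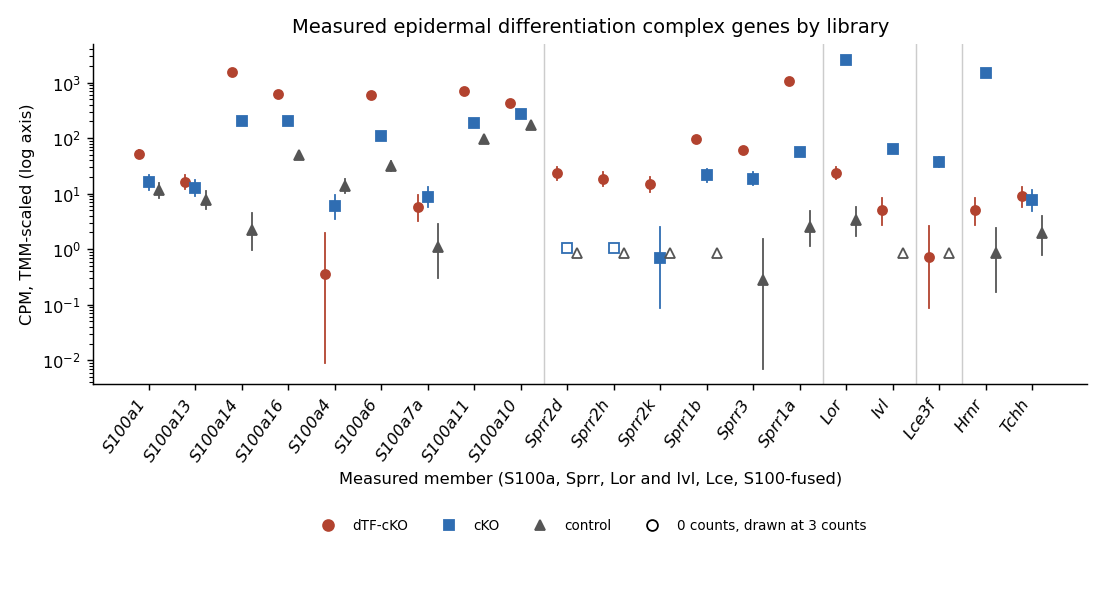
CPM after TMM scaling (log axis) of the 20 measured members in the dTF-cKO, cKO and control libraries, grouped as S100a, Sprr, Lor and Ivl, Lce and S100-fused genes. Vertical lines are exact 95% counting intervals, 1 library per point, and open symbols mark 0 counts drawn at 3 counts. S100a14 and Sprr1a reach 1543 and 1081 CPM in the dTF-cKO, while Lor and Hrnr reach 2550 and 1510 CPM in the cKO.

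Start-site windows from RefSeq (GRCm38.p6, 250 bases before to 50 after the start) were found for 54 of the 61 symbols, in 58 windows. They were searched on both strands for TGANTCA, the letters bound by AP-1 factors, and for TATAAA, the TATA box. AP-1 letters were in 9 of 14 Sprr windows, 2 of 15 S100a windows and 0 of 20 Lce windows, against 7.81% of all 32851 windows. TATAAA was in 10, 4 and 4 of the same windows, against 13.6% of all. The windows of Lor, Ivl, Crnn, Flg2, Flg, Rptn and Tchhl1 each held AP-1 letters too, so genes high in the cKO and genes high in the dTF-cKO both carried them. In 7 Sprr2 genes an AP-1 match began between 193 and 198 bases before the start. Other motifs searched were AACCNGTT (GRHL), TTGCNNAA (C/EBP) and AGGAAG (ETS), present in 3, 6 and 28 of the 58 windows, against 2.09%, 10.8% and 35.4% of all windows. A match describes letters in a window and does not show binding.

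The windows of 4 members with large differences between the Cre-carrying libraries, 2 in each direction, are printed 5′ to 3′ to show these letters, with TGANTCA and TATAAA in capitals. Lor (chr3:92083093-92083392, minus strand) and Hrnr (chr3:93319499-93319798, plus strand) were highest in the cKO, and Sprr1a (chr3:92485832-92486131, minus strand) and Sprr2d (chr3:92338890-92339189, plus strand) in the dTF-cKO.
Sprr1a: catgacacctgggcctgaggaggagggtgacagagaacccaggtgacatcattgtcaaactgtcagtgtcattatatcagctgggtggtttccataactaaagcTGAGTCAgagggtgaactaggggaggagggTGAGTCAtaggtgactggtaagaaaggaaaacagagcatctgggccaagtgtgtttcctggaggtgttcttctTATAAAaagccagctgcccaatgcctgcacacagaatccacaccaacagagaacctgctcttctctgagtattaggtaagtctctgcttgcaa
Sprr2d: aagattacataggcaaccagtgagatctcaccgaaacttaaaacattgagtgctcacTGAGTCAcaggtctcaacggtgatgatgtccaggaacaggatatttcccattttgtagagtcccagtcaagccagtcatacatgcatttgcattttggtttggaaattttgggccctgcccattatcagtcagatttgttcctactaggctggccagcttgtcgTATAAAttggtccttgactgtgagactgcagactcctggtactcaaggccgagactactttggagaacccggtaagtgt
Lor: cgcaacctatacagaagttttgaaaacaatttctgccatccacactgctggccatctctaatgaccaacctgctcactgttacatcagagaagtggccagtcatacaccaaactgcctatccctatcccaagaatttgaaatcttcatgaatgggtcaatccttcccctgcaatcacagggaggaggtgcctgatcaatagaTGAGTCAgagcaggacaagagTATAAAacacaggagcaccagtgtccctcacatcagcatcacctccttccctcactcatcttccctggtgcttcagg
Hrnr: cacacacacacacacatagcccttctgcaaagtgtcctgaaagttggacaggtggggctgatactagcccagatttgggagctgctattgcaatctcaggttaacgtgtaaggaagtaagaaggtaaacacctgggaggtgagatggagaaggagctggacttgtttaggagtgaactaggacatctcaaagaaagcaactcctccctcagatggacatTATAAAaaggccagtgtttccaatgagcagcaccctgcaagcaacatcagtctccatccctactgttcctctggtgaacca
Sprr1a had AP-1 letters beginning 146 and 116 bases before the start and TATAAA at 43 bases. Sprr2d had them at 193 and 29 bases, Lor at 48 and 27 bases, and Hrnr had TATAAA at 31 bases with no AP-1 match in this window.

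Lor encodes loricrin, a glycine-rich protein and the most abundant component of the mature cornified envelope. Lor had 67 counts in the dTF-cKO, 7210 in the cKO and 12 in the control, or 23.9, 2550 and 3.36 CPM. It was 107-fold lower in the dTF-cKO than the cKO (exact 95% interval 83.8 to 138). It stood 7.13-fold above the control in the dTF-cKO (3.83 to 14.5) and 760-fold above it in the cKO (435 to 1471). In the cKO library 1 gene, Lor, thus supplied 48.0% of all member counts.

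Hrnr encodes hornerin, an S100-fused repeat protein of the upper epidermis. Hrnr had 14 counts in the dTF-cKO, 4270 in the cKO and 3 in the control. It was 302-fold lower in the dTF-cKO than the cKO (180 to 553), the widest gap of any measured member with counts in both libraries. Against the control the ratio was 5.96 in the dTF-cKO (1.66 to 32.4) and 1800 in the cKO (616 to 8732), both resting on 3 control counts. Ivl encodes involucrin, an early scaffold of the envelope, and had 14, 177 and 0 counts in the dTF-cKO, cKO and control. It was 12.5-fold lower in the dTF-cKO than the cKO (7.27 to 23.4). Against the 3-count limit of the control it was at least 5.96-fold higher in the dTF-cKO and at least 74.6-fold higher in the cKO. Lor, Hrnr and Ivl thus had their highest scaled levels in the cKO, with the dTF-cKO between the cKO and the control. Set against basal keratinocyte genes, the dTF-cKO instead stood below the control for Lor and Hrnr. The same held for Tchh and for every measured S100a gene except S100a14.

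The other S100-fused genes were scarce. Flg, which encodes profilaggrin, had 0 counts in all 3 libraries, and Flg2 had 0 in the dTF-cKO, 7 in the cKO and 0 in the control. Their transcripts held 8721 and 9055 distinct 50-base stretches for 18829 and 20803 bases of exon, so many recur within each gene. How such reads were counted is not known, so 0 counts do not show that Flg was absent. Crnn, a gene of oral and esophageal epithelium, went the other way with 29, 6 and 0 counts, 4.88-fold higher in the dTF-cKO than in the cKO (1.99 to 14.4). Rptn, which encodes repetin, had 15 counts in the dTF-cKO and 0 in each of the other libraries. Tchh, which encodes trichohyalin of the hair inner root sheath, had 25, 22 and 7 counts, with a dTF-cKO to cKO ratio of 1.15 whose interval (0.621 to 2.14) included 1. Tchhl1 had 2 counts in each Cre-carrying library and 0 in the control. Flg2, Crnn, Rptn and Tchhl1 lay below the expression floor.

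The Lce genes encode late envelope proteins added on the inner side of the cornified envelope. Of 21 listed, 3 had counts in the dTF-cKO, 11 in the cKO and 0 in the control, and they summed to 19, 146 and 0 counts. Lce3f alone passed the floor, with 2 counts in the dTF-cKO, 105 in the cKO and 0 in the control, and it was 52.0-fold lower in the dTF-cKO than the cKO (14.01 to 435). The 14 Lce1 genes summed to 0 counts in the dTF-cKO, which allows up to 1.07 CPM, against 22 in the cKO and 0 in the control. Lce6a had 0, 16 and 0 counts. Lce3c was the exception with 14 counts in the dTF-cKO, 1 in the cKO and 0 in the control. Reads of these genes are hard to place, since 48.0% of the 50-base stretches of Lce3f transcripts and 35.7% of those of Lce3c also occur in other genes, mostly other Lce3 genes. The 6 Lce3 genes together held 19 counts in the dTF-cKO, 108 in the cKO and 0 in the control.

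The small proline-rich proteins are short precursors that transglutaminases crosslink as bridges between other envelope proteins, and Sprr1a and Sprr1b are also made by periderm and by stressed or healing epidermis. The 17 Sprr genes summed to 3716 counts in the dTF-cKO, 284 in the cKO and 10 in the control, and the dTF-cKO sum was 13.2 times the cKO sum after scaling (11.7 to 15.0). Counts above 0 were found for 15 of the 17 in the dTF-cKO, 6 in the cKO and 2 in the control. Each of the 6 measured Sprr genes exceeded its cKO level in the dTF-cKO by 2-fold or more. For Sprr2d, Sprr2h and Sprr2k this direction was set by the floor, which they reached only through the dTF-cKO.

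Sprr1a had 3025 counts in the dTF-cKO, 162 in the cKO and 9 in the control, or 1081, 57.3 and 2.52 CPM. It was 18.9-fold higher in the dTF-cKO than in the cKO (16.1 to 22.2) and 429-fold higher than in the control (226 to 940), while the cKO was 22.8-fold above the control (11.7 to 50.7). Sprr1a held most of the Sprr counts in the dTF-cKO, so the other Sprr genes are given apart. Without it the remaining 16 summed to 691, 122 and 1 counts, and the dTF-cKO was 5.72-fold above the cKO (4.71 to 6.99). Sprr1b had 269, 61 and 0 counts and was 4.45-fold higher in the dTF-cKO than in the cKO (3.36 to 5.98). Sprr3, known from oral and esophageal epithelium, had 168, 53 and 1 counts and was 3.20-fold higher in the dTF-cKO than in the cKO (2.34 to 4.45).

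The 13 Sprr2 genes lie in a tandem block and summed to 254 counts in the dTF-cKO, 8 in the cKO and 0 in the control. The dTF-cKO was 32.1-fold above the cKO (16.03 to 75.1). Sprr2d had 65, 0 and 0 counts, and was at least 21.9-fold higher in the dTF-cKO than in the cKO against 3 counts. Sprr2h had 52, 0 and 0 counts and was at least 17.5-fold higher by the same limit. Sprr2k had 42, 2 and 0 counts, a dTF-cKO to cKO ratio of 21.2 (5.52 to 181). Sprr2a1, Sprr2a2 and Sprr2a3 had 23, 17 and 26 counts in the dTF-cKO, 0, 5 and 0 in the cKO and 0 in the control. These last 3 cannot be taken apart, because 96.3%, 96.5% and 61.1% of their 50-base stretches occur in another gene and the annotated bodies of Sprr2a1 and Sprr2a2 overlap. The share was 4.27% for Sprr2d and 0 for Sprr2h, Sprr2k, Sprr1a, Sprr1b and Sprr3. Sprr4 and the pseudogene Sprr2c-ps had no count in any library.

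S100a14, an S100 gene of epithelial cells, had the most counts of any member in the dTF-cKO. It had 4319 counts there, 576 in the cKO and 8 in the control, or 1543, 204 and 2.24 CPM. It was 7.57-fold higher in the dTF-cKO than in the cKO (6.94 to 8.28), with the dTF-cKO 690-fold (349.7 to 1598) and the cKO 91.1-fold (45.9 to 212) above the control. Its low control level sets it apart from the other abundant S100a genes, each of which had over 100 control counts.

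Those widely expressed genes were also highest in the dTF-cKO. S100a11, which encodes an annexin partner that is also crosslinked into the envelope, had 1940, 521 and 345 counts in the dTF-cKO, cKO and control, and was 3.76-fold higher in the dTF-cKO than in the cKO (3.41 to 4.15). Of its 50-base stretches 41.1% also occur in other genes, among them Gm12854 and Gm7665. S100a6, known as calcyclin, had 1689, 310 and 113 counts and was 5.50-fold higher in the dTF-cKO than in the cKO (4.87 to 6.23). S100a16, a broadly expressed member, had 1736, 569 and 180 counts and was 3.08-fold higher (2.80 to 3.39). S100a10, the partner of annexin A2, had 1205, 778 and 622 counts. Its dTF-cKO to cKO ratio was 1.56 (1.43 to 1.71), short of the size rule. For these 4 genes the order of scaled levels was dTF-cKO, then cKO, then control, and no counting interval of the ratios between neighbours in that order included 1.

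S100a4, a gene of fibroblasts and macrophages, was the only measured member with its highest level in the control. It passed the floor only through that level, so its direction against the control was set by the floor. It had 1 count in the dTF-cKO, 17 in the cKO and 49 in the control. Against the control it was 38.4-fold lower in the dTF-cKO (6.57 to 1546) and 2.28-fold lower in the cKO (1.29 to 4.22). The dTF-cKO was 16.8-fold below the cKO (2.64 to 703), a gap under 2-fold when libraries were scaled to stromal genes (log2 difference -0.95 in place of -2.72). Macrophage genes (12 of 12 measured, none at 0) summed to 338, 677 and 377 CPM in the dTF-cKO, cKO and control, and the fibroblast list is given above. Their part in the S100a4 values was not tested. A Gm42674 transcript shares 47.4% of the 50-base stretches of S100a4.

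The remaining S100a genes were scarce. S100a1, made in muscle and cartilage, had 144, 45 and 42 counts in the dTF-cKO, cKO and control and was 3.23-fold higher in the dTF-cKO than in the cKO (2.30 to 4.62). Summed chondrocyte genes (10 of 10 measured, none at 0) were 517, 3063 and 1000 CPM, and skeletal muscle genes (10 of 10 measured, with Ckm at 0 in the dTF-cKO) were 15.7, 280 and 1818 CPM. Their part in the S100a1 values was not tested. S100a13 had 46, 36 and 28 counts, with a dTF-cKO to cKO ratio of 1.29 (0.816 to 2.05). S100a7a, a relative of psoriasin, had 16, 25 and 4 counts, with a ratio of 0.646 (0.322 to 1.26). S100a8 and S100a9, the subunits of calprotectin in neutrophils and stressed keratinocytes, lay below the floor with 0, 9 and 4 and with 17, 18 and 4 counts. Neutrophil and granule genes (1 of 14 measured) summed to 15.7, 23.3 and 17.9 CPM, with 11, 5 and 6 of the 14 at 0 and Ly6g, Elane, Chil3 and Cebpe at 0 in every library. S100a3 had 1 count, in the dTF-cKO, and S100a2 and S100a5 had none.

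Levels of different genes were compared per kilobase of annotated exon. In the dTF-cKO S100a11 and Sprr1a led at 1356 (1297 to 1418) and 1341 (1294 to 1390) CPM per kb, levels whose counting intervals overlap, followed by S100a14 at 894 CPM per kb. In the cKO Lor led at 1434 CPM per kb (1401 to 1467), followed by S100a11 at 361, S100a10 at 227 and Hrnr at 135 CPM per kb. In the control S100a11 and S100a10 led at 189 and 144 CPM per kb, and no Sprr, Lce or other envelope gene exceeded the 3.12 CPM per kb of Sprr1a. Hrnr, with its long repeat exon, thus ranked below S100a11 and S100a10 in the cKO per length, although it had more counts than either. Its transcripts held 4559 distinct 50-base stretches for 11187 bases of exon, so many recur within the gene. How reads from such repeats were counted is not known, so this rank is uncertain.

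Along the chromosome the clearest run of like differences between the Cre-carrying libraries was that of the Sprr genes. Directions were mixed among the S100a, Lce and S100-fused genes. Of the 38 members with over 3 counts in these 2 libraries together, 20 were at least 2-fold higher and 11 at least 2-fold lower in the dTF-cKO, including members below the floor. Of all 16279 genes with over 3 counts there, 15.7% were higher and 24.0% lower. Lor and Ivl lie 488 kb apart, and the 12 Sprr genes of the 38 lie between them in a stretch of 270 kb. All 12 were at least 2-fold higher in the dTF-cKO, while Lor and Ivl on either side were lower. Of the 12, only Sprr2a2, Sprr1b, Sprr3 and Sprr1a had over 3 counts in each of these libraries. The others passed this filter only through the dTF-cKO, so their direction was set by it. Of the 7 Lce genes beyond Ivl, 5 were lower and 1 higher in the dTF-cKO. The 5 lower genes passed the filter only through the cKO and the higher one only through the dTF-cKO. These directions were thus set by the filter as well. Neighbours share sequence and libraries, so these genes are not independent observations.

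**Figure D3:**
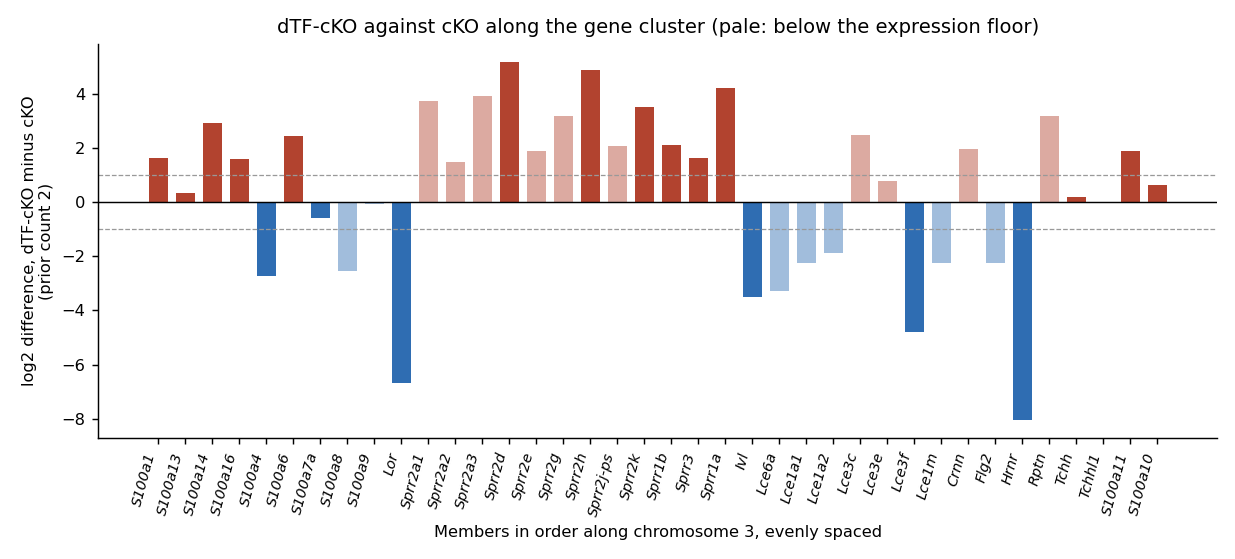
Log2 difference of dTF-cKO minus cKO (prior count 2) for the 38 members with over 3 counts in these libraries together, evenly spaced in their order along chromosome 3. Pale bars are below the expression floor, dashed lines mark 2-fold, and the block of 12 Sprr genes between Lor and Ivl points up while Lor, Ivl and Hrnr point down. Genes that passed this filter only through the dTF-cKO or only through the cKO had their direction set by it.

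As keratin shares differed between libraries, members were also set beside basal keratinocyte genes of the same library, which needs no library scaling. Krt5, Krt14, Krt15, Col17a1 and Trp63 summed to 25617 counts in the dTF-cKO, 13192 in the cKO and 247 in the control. Per 100 of these counts, the members summed to 58.6 in the dTF-cKO (57.4 to 59.8) and 114 in the cKO (111 to 117). The control had 579 (506 to 666), mostly the widely expressed S100a genes, and 34.8 (26.9 to 44.7) without S100a4, S100a6, S100a8, S100a9, S100a10, S100a11, S100a13 and S100a16. Without these 8 the values were 32.7 in the dTF-cKO (31.9 to 33.5) and 96.8 in the cKO (94.5 to 99.2). S100a1, which was left in, made up 17.0 of the 34.8 in the control. It made up 0.562 of the dTF-cKO value and 0.341 of the cKO value.

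On this scale too the dTF-cKO stood above the cKO for Sprr genes and S100a14, and below it for Lor and Hrnr. Sprr genes stood at 14.5 per 100 basal counts in the dTF-cKO and 2.15 in the cKO, a ratio of 6.74 (5.97 to 7.63). S100a14 stood at 16.9 and 4.37, a ratio of 3.86 (3.54 to 4.22). Lor stood at 0.262 in the dTF-cKO and 54.7 in the cKO, 209-fold lower in the dTF-cKO (164 to 269.9). Hrnr stood at 0.0547 and 32.4, 592-fold lower (353 to 1084). S100a10 was on the other side here, with 4.70 in the dTF-cKO and 5.90 in the cKO (ratio 0.798, 0.728 to 0.874), whereas its scaled level was 1.56-fold higher in the dTF-cKO. In the control, Sprr genes stood at 4.05 per 100 basal counts (1.92 to 7.57) and Lor at 4.86 (2.48 to 8.64), on 10 and 12 counts. On this scale the dTF-cKO stood 18.6-fold below the control for Lor (9.14 to 34.6), and Hrnr, at 1.21 in the control on 3 counts, was 22.2-fold lower (4.10 to 79.6). Set against the spinous and suprabasal list, itself higher in the cKO, the dTF-cKO to cKO ratio was 82.5 for Sprr genes (73.1 to 93.4) and 0.821 for Lce genes (0.480 to 1.33), an interval that includes 1. Lor and Ivl together were 14.5-fold lower in the dTF-cKO by that list (11.6 to 18.2), and the S100-fused genes 8.04-fold lower (6.48 to 10.1).

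**Figure D4:**
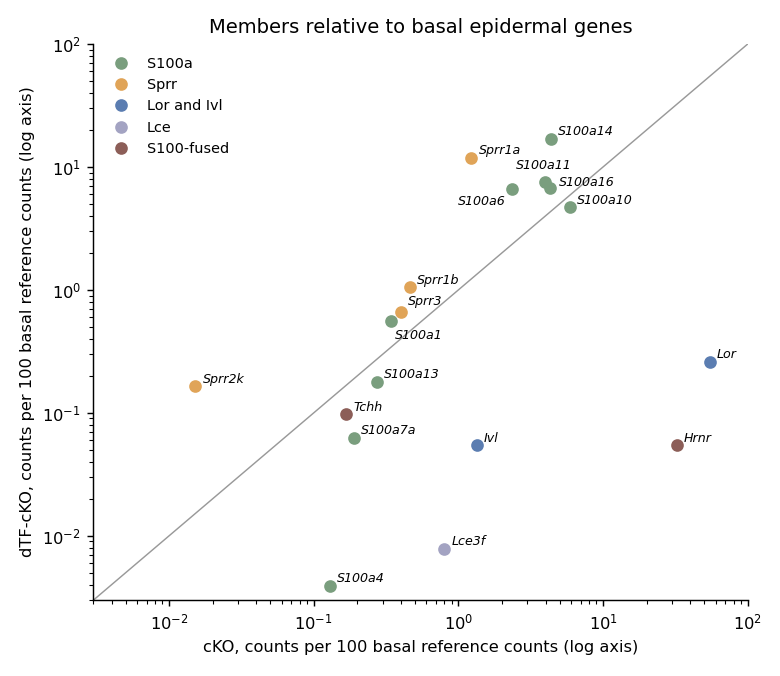
Counts of each measured member per 100 summed counts of Krt5, Krt14, Krt15, Col17a1 and Trp63, with the dTF-cKO on the vertical and the cKO on the horizontal log axis and the diagonal marking equal values. Sprr2d and Sprr2h, at 0 in the cKO, are not drawn. Sprr1a lies above the diagonal (11.8 against 1.23), while Lor (0.262 against 54.7), Hrnr and Ivl lie far below it.

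Other epidermal genes differed between the libraries beside the members. Basal genes (10 of 10 measured, none at 0) summed to 11273.5 CPM in the dTF-cKO, 5645 in the cKO and 99.3 in the control. In the dTF-cKO against the cKO, 5 of 10 were higher and 1 lower (median log2 difference 1.02), where 14.5% of all measured genes were higher and 20.5% lower. Spinous and suprabasal genes (13 of 14 measured, Krt2 at 0 in every library, Dsg1a and Lypd3 at 0 in the control) summed to 3181, 19863 and 180 CPM, with 1 of 13 higher and 8 lower (median -1.53). Krt1, the keratin of spinous cells, had 102, 16591 and 16 counts, and Krt10, its partner, 901, 19639 and 21. The level of Lor and Hrnr thus moved with these keratins, and the part of cell composition in the members' values was not tested.

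Genes of periderm, wound and oral epithelium (9 of 10 measured, Krt76 at 0 in the cKO and control, Krt16 at 0 in the control) summed to 6312, 885 and 62.9 CPM. In the dTF-cKO against the cKO, 7 of 9 were higher and 0 lower (median 3.04), where 14.5% of all measured genes were higher and 20.5% lower. Krt17, a keratin of embryonic and wounded skin, had 3967, 103 and 16 counts and was 38.9-fold higher in the dTF-cKO than in the cKO (32.0 to 47.8). Krt8, a keratin of simple epithelia and periderm, had 4159, 116 and 54 counts and was 36.2-fold higher (30.1 to 43.9). The Sprr and S100a14 levels had the same order across the libraries as these genes. The basal genes had that order too (11273.5, 5645 and 99.3 CPM in the dTF-cKO, cKO and control). The part of either list in the Sprr and S100a14 values was not tested.

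A list of enzymes that crosslink the envelope and make its lipids, together with the scaffolds Ppl and Evpl (22 of 24 measured), summed to 3868 CPM in the dTF-cKO, 4114 in the cKO and 122 in the control, with Abca12, Aloxe3, Klk5, Klk7 and Tgm3 at 0 in the control and Tgm5 at 0 in the dTF-cKO. In the dTF-cKO against the cKO, 4 of 22 were higher and 10 lower (median -0.63), where 14.5% of all measured genes were higher and 20.5% lower. Without Ppl and Evpl the list summed to 1792 CPM in the dTF-cKO, 2540 in the cKO and 105 in the control, with 4 of 20 higher and 10 lower. Ppl and Evpl, which encode periplakin and envoplakin, had 2733 and 3077 counts in the dTF-cKO, 2500 and 1949 in the cKO and 47 and 13 in the control. Their dTF-cKO to cKO ratios were 1.10 (1.05 to 1.17) and 1.59 (1.51 to 1.69), both short of the size rule. Asprv1, a protease of the granular layer, had 942, 2404 and 20 counts and was 2.53-fold lower in the dTF-cKO than the cKO (2.34 to 2.73).

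**Figure D5:**
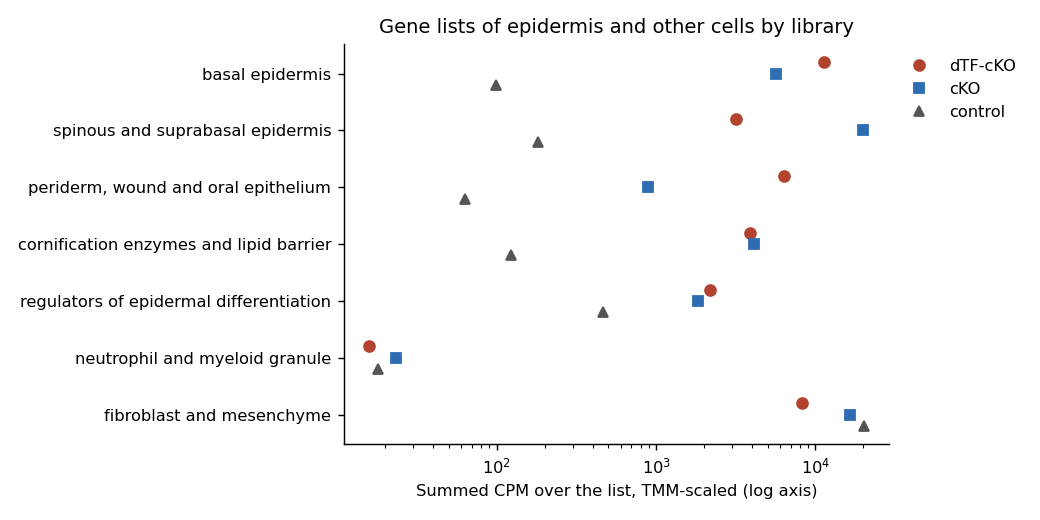
Summed CPM (log axis, TMM-scaled, 1 library per point) of 7 gene lists in the dTF-cKO, cKO and control libraries. Suprabasal genes are highest in the cKO at 19863 CPM and periderm, wound and oral genes in the dTF-cKO at 6312 CPM, while the cornification list, scaffolds Ppl and Evpl included, stands at 3868 and 4114 CPM in these libraries.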

How the data were processed

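Polyadenylated RNA of 3 libraries, 1 per genotype, was isolated by Qiagen RNeasy and made into libraries by the Ion Total RNA-Seq kit, per the labels' protocols. The deposited values are raw read counts per gene, with no normalization by the authors, per the file headers. The submitters' processing notes name the build mm10. Which aligner, counter, annotation and strand setting were used is not given in the sources used here. Overlapping genes and near copies therefore have uncertain counts.

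Counts were scaled with TMM factors from edgeR 4.0.16 in R 4.3.3 (0.963 for the dTF-cKO, 1.06 for the cKO and 0.984 for the control). Log2 CPM used a prior count of 2, and each log2 difference subtracts the library named last. Folds compare scaled counts with no prior count added, with exact conditional (Clopper-Pearson) 95% intervals from SciPy 1.17.1; shares have exact binomial and levels exact Poisson intervals. No molecular identifiers are named in the labels, so a read is not always a separate molecule and all intervals and limits cover counting error only. A count of 0 was set to 3 counts and the fold given as a lower bound. Coordinates and exon lengths came from GENCODE vM21 (GRCm38), in which all 61 symbols matched; uniqueness was scored as the share of 50-base stretches found in transcripts of other genes. Calls and intervals were tested on simulated counts with known folds and counting error only. That test does not cover differences between embryos or in cell makeup.

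Members, gene lists and comparisons were chosen with earlier results of these data known. Every member with a count could be named, and from each list up to 4 of its most abundant genes; others are marked. Alternatives were scaling to library totals, DESeq2 1.42.0 size factors, totals that leave out each library's 20 most abundant genes, and a stroma scaling that sets the median difference of 20 fibroblast and endothelial genes to 0. Others were prior counts of 0.5 and 10, no floor or a floor of 20 CPM, and size rules of 1.5-fold, 3-fold or an interval excluding 1.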

Additional observations from a re-analysis of the deposited data

How the results depend on the processing

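In none of the alternatives of scaling, prior count, floor or size rule did a member at least 2-fold different change direction. Of the recomputed differences of single members, 380 kept their sign and call, while 10 calls were lost and 4 gained with the same sign. Levels per 100 basal counts are not among these alternatives. On that scale Lor, Hrnr, S100a1, S100a6, S100a7a, S100a10, S100a11, S100a13, S100a16 and Tchh stood below the control in the dTF-cKO. S100a14 and Sprr1a stayed above it. S100a7a and Tchh, short of 2-fold in the dTF-cKO against the cKO, changed sign, S100a7a to a call (log2 difference 1.20) under the stroma scaling and Tchh to -0.09 with abundant genes left out of the totals. S100a10, S100a13 and Lce3f lost their call against the control in the dTF-cKO with totals that leave out each library's 20 most abundant genes (log2 differences 0.94, 0.67 and 0.96), and S100a4 lost its call in the dTF-cKO against the cKO under the stroma scaling. Counts of higher members were moved by the floor. Without a floor, over 46 members, they were 31 for the dTF-cKO against the control, where 15.0% of all genes were higher. They were 23 for the cKO against the control (9.51% of all genes) and 20 for the dTF-cKO against the cKO (13.6%). With a floor of 20 CPM the count for the dTF-cKO against the control became 12 of 12, where 21.9% of all measured genes were higher. Without a floor, 2 members were lower in the dTF-cKO against the control (20.4% of all genes). In the dTF-cKO against the cKO, 11 were lower (20.1%). With a floor of 20 CPM, 0 were lower against the control in the dTF-cKO (15.4% of all measured genes) and 0 in the cKO (4.08%). In the dTF-cKO against the cKO, 3 were lower at that floor (14.7%). The lower member of the cKO against the control also became 0 with a prior count of 10 or a 3-fold rule (5.29% and 3.15% of all measured genes). Fewer genes enter under a higher floor. Median log2 differences moved without a floor to 1.91 for the dTF-cKO and 0.99 for the cKO against the control and 0.63 between them, and with a floor of 20 CPM to 4.29 (cKO against control). A prior count of 10 gave 2.26 for the dTF-cKO against the control. The stroma scaling gave 4.38 for the dTF-cKO against the control and 3.41 for the dTF-cKO against the cKO, because it moves the median of all genes by 1.41 and 1.77; the totals without abundant genes move it by -0.38 and -0.32.

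Leaving out each library's 20 most abundant genes, 33 in all with Lor the only member among them, the members' share of counts was 0.582% in the dTF-cKO, 0.370% in the cKO and 0.0555% in the control. The scaled sum of members in the dTF-cKO over the cKO, recomputed after seeing the data, was 0.921 with library totals, 1.05 with DESeq2 size factors, 0.821 with totals that leave out abundant genes and 3.45 under the stroma scaling. Per 100 basal counts the sums were 75.7 (dTF-cKO) and 148 (cKO) without Krt14, and 47.6, 94.2 and 403 in the dTF-cKO, cKO and control against the whole basal list. Against the spinous and suprabasal list they were 169, 26.8 and 222, which turned the order of the dTF-cKO and cKO round, since that list is itself higher in the cKO. Without the 8 S100a genes left out above, the scarce S100a4, S100a8 and S100a9 among them, the sums per 100 basal counts were 32.7, 96.8 and 34.8. S100a1, left in, made up 17.0 of that control value and 0.562 of the dTF-cKO value. No paired analysis was possible because there was 1 library per genotype. Depth limits members under 3 counts.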

Other observations

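Genes of the same region outside the symbol rule did not all follow the members. Crct1, a cysteine-rich gene between Lce3f and Lce1m chosen after its values were seen, had 123 counts in the dTF-cKO, 130 in the cKO and 0 in the control. Pglyrp3, a peptidoglycan recognition gene next to Lor chosen in the same way, had 176, 13 and 0 counts. Them5, a thioesterase gene beyond S100a10, had 9, 545 and 1 counts and its dTF-cKO level was 60.0-fold below that of the cKO (31.3 to 132). The broadly expressed genes Chtop, Ints3 and Ilf2 beyond S100a1 had dTF-cKO to cKO ratios of 1.19 (1.01 to 1.42), 0.746 (0.617 to 0.901) and 1.48 (1.22 to 1.80).

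Regulators of epidermal differentiation (21 of 22 measured, Grhl3 and Ovol2 at 0 in the control) had a median log2 difference of 0.00 in the dTF-cKO against the cKO, with 5 higher and 8 lower. Of all measured genes, 14.5% were higher and 20.5% lower in that comparison. Fosl2, an AP-1 subunit, had 1332 counts in the dTF-cKO, 440 in the cKO and 304 in the control, and was 3.06-fold higher in the dTF-cKO than in the cKO (2.74 to 3.41). Klf4, a factor of barrier formation that is also expressed outside the epidermis, had 298, 748 and 600 counts in the dTF-cKO, cKO and control and was 2.49-fold lower in the dTF-cKO than the cKO (2.17 to 2.85). Zfp750, a factor of terminal differentiation, had 523, 399 and 5 counts, with a dTF-cKO to cKO ratio of 1.32 (1.16 to 1.51).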
